A study of Mus musculus with 8 samples.

Results

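The transcripts described here are those of the adipogenic program, which turns fibroblast-like precursors into fat cells, in Lats2-/- and Lats2+/+ mouse embryonic fibroblasts (MEFs). The members were 10 gene names: Pparg, Cebpa, Cebpb, Cebpd, Fabp4, Lpl, Adipoq, Cd36, Plin and Adn. Every gene probe of the array whose name in the scanner files is one of these was taken, which gave 15 probes of 9 names among 41174 gene probes and 27745 gene names. No probe is named Adn. RefSeq gives Adn as an older name of Cfd (adipsin), which has 1 probe on the array and is described beside the members. Of the 15 probes, 9 probes of 6 genes (Pparg, Cebpa, Cebpb, Cebpd, Fabp4 and Lpl) passed the filter on dim probes (a signal well above background in 2 or more of the 3 extracts of a genotype) and entered the tests.

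In precursor cells, C/EBPβ and C/EBPδ (Cebpb, Cebpd) act early and induce PPARγ (Pparg) and C/EBPα (Cebpa), which then maintain each other. Both switch on genes for lipid uptake, transport and storage and, in mature fat cells, secreted adipokines. LATS2 is a kinase of the Hippo pathway that restrains the coactivators YAP and TAZ. TAZ (Wwtr1) binds PPARγ and represses its target genes.

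Each litter gave 1 Lats2-/- and 1 Lats2+/+ RNA extract, and 3 litters (112, 116 and 121) gave 6 extracts on 8 arrays. The strain is C57BL/6J for all extracts, and the cells were grown in serum medium with no treatment, so that no adipogenic inducer was given. The source names in the labels read LAT2, while the genotype field reads Lats2. Embryo age and the deleted part of the gene are not given in the sources used here. MEFs are a mixed primary population, and each extract is named as 1 clone, so that embryo and genotype cannot be told apart within a litter. Both extracts of a litter shared each array with the dyes swapped between arrays (2 arrays for litters 112 and 116, 4 for litter 121), and litters 112 and 116 lay on another slide than litter 121. Nothing says that the litters were cultured or extracted on separate occasions, so that p-values measure the spread between these 3 pairs. Ratios below are log2 of Lats2-/- over Lats2+/+, and levels are log2 signals after normalization, on which probes above background began between 5.87 and 6.15 depending on the array.

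The genotype and the cell type were read first. The Lats2 probe nearest the 5′ end (A_52_P425064) gave -1.33, -1.05 and -0.56 in litters 112, 116 and 121, while the other 3 probes ranged from -0.70 to -0.18 for litters 112 and 116 and from 0.80 to 1.17 for litter 121. In litter 121 these 3 probes ran against the label, a limit on every direction read from that litter, although the 5′ probe did not. The study also checked for loss of the protein in Lats2-/- MEFs by blotting, without naming the litter. Ctgf, a target of YAP and TAZ, was higher in the library labelled Lats2-/- in each litter, with 1.55, 1.18 and 1.67. Medians of spot brightness were 60.9 to 68.2 in green and 83.1 to 94.2 in red, and 52.9% to 61.3% of probes were above background. All 12 fibroblast markers were kept. Of 12 mature adipocyte markers, 9 were above background in no extract, and Lipe and Gpd1 passed the filter at log2 signals of 6.79 or less. The summed linear signal of that list was 909 to 919 in Lats2-/- and 889.7 to 920.1 in Lats2+/+ extracts.

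Pparg and Lpl were much higher in the Lats2-/- cells of litter 112, higher by less in litter 121 and slightly lower in litter 116. Cebpd was highest relative to wild type in litter 121, while Fabp4 and Cebpa were lower in litter 116. Of the 9 tested probes, 0 passed the adjusted threshold of 0.05 in limma, where 0% of all 22642 tested probes passed, and adjusted p-values were between 0.754 and 0.943. At an unadjusted limma p under 0.05 there were also 0 of 9, beside 6.84% of all tested probes, and the lowest was 0.154 for Pparg. The methods' t-test, run on the same litter ratios, also gave 0 at either threshold. A ratio of 1 sign in all 3 litters was found for 0 of 9 probes, beside 29.7% over all tested probes. With the sign of litter 121 turned, chosen after seeing the data because of the Lats2 probes there, it was found for 3 of 9 (both Cebpb probes and Cebpa), beside 24.4%. Turned so, Cebpd was at -0.40 in place of 0.62 on average, the means of the other members kept their sign, and 0 of 9 had an unadjusted limma p under 0.05. In RNA of a whole culture, fewer cells of a type and less RNA per cell cannot be told apart.

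Single litters held larger differences. At least 2-fold differences were found for 3 of the 9 probes in litter 112 (Pparg and both Lpl probes), where 3.77% of all tested probes differed as much. Litter 116 also gave 3 (Cebpa and 2 Fabp4 probes), beside 7.71%, and litter 121 gave 1 (Cebpd), beside 6.09%. Probes of 1 gene share their transcript, so that these counts rest on few genes. The second Lpl probe passed the filter only through Lats2-/- cells, where it was higher, and is no separate support for the count in litter 112. A ratio within a litter compares 1 extract with 1 extract, and its arrays are technical repeats.

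**Figure D1:**
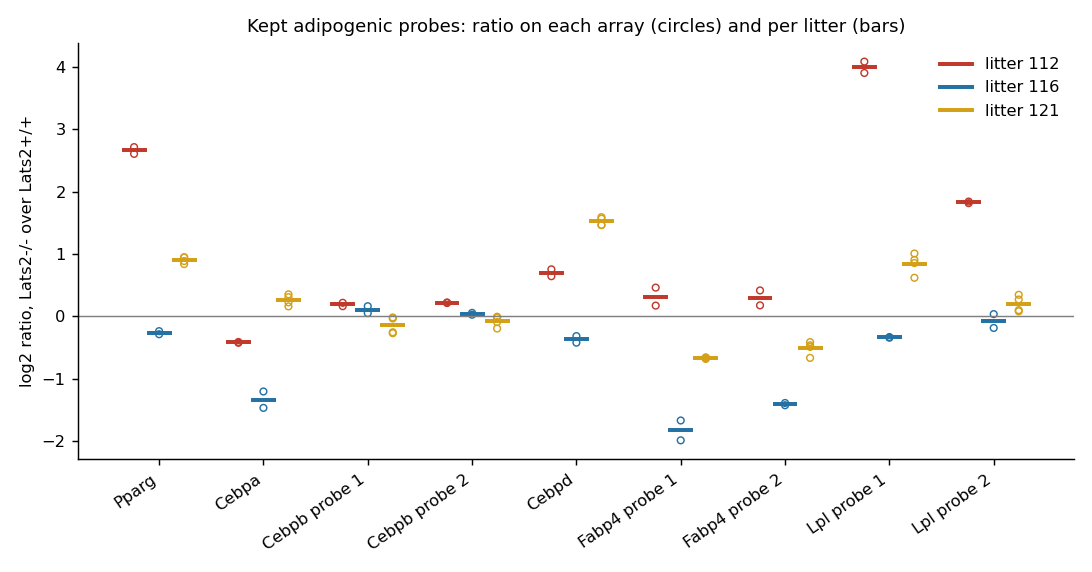
Log2 ratio of Lats2-/- over Lats2+/+ (vertical axis) for the 9 kept member probes. Circles are single arrays and bars are litters. The litters of each probe lie on both sides of 0: Pparg was at 2.66 in litter 112, -0.26 in litter 116 and 0.91 in litter 121.

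Pparg encodes the nuclear receptor that is required for fat cell formation. Its probe (A_51_P106799, chromosome 6, 115455814 to 115455873, mm8) is spotted 10 times on each array. The log2 signal was 10.63 in Lats2-/- and 7.97 in Lats2+/+ cells of litter 112, 6.90 and 7.16 in litter 116, and 8.97 and 8.06 in litter 121. The Lats2-/- extract of litter 112 thus stood highest, 1.66 above the Lats2-/- extract of litter 121, and both extracts of litter 116 stood lowest. Every step in this order was larger than the SD over arrays, the smallest being 0.09 between the wild-type extracts of litters 121 and 112. The genotypes overlapped, with 8.83 ± 1.87 in Lats2-/- and 7.73 ± 0.50 in Lats2+/+ cells (SD, n = 3 litters).

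The ratio of Pparg was 6.32-fold higher in Lats2-/- cells of litter 112, 1.87-fold higher in litter 121 and 1.20-fold lower in litter 116. Dye swaps gave the same sign on every array of a litter, with 2.61 and 2.71 on the arrays of litter 112, -0.28 and -0.24 in litter 116, and 0.84 to 0.95 in litter 121. The mean of 1.10 ± 1.47 (SD, n = 3 litters; SE of 0.62 in limma) was smaller than the spread between litters, with a limma adjusted p of 0.754, unadjusted 0.154. The size rested on litter 112: without it the mean was 0.32. Without litter 116 it was 1.78, with a limma adjusted p of 0.834, unadjusted 0.0484.

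RefSeq (GRCm38.p6) lists 3 starts for Pparg, and they are shown because Pparg differed most between genotypes among the 4 member factors, in litter 112, and because C/EBP factors are known to act on this gene. The array has 1 probe for the gene and does not tell transcripts from these starts apart. Below are the 250 bases before each start, on the plus strand, 5′ to 3′. Capitals mark TTNNGNAA, a C/EBP-like motif, and AGGTCA, the core motif of nuclear receptors, on either strand.
Pparg start 1, chr6:115360894-115361143: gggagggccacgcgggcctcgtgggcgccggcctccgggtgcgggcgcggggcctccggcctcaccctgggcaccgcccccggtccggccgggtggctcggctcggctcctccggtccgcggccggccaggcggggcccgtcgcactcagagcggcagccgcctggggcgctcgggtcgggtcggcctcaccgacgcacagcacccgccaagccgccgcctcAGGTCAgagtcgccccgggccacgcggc
Pparg start 2, chr6:115362099-115362348: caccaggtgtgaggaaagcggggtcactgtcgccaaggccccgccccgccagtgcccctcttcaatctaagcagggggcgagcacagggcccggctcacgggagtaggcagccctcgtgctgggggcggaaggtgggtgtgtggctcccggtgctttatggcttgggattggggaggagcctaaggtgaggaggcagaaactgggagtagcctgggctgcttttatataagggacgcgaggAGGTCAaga
Pparg start 3, chr6:115421816-115422065: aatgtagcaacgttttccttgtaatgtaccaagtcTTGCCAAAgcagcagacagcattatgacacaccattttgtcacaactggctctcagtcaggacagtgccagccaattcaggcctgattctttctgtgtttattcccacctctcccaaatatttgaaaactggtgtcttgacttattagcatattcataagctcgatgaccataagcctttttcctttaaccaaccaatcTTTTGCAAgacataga

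The first 2 starts each hold 1 AGGTCA and no C/EBP-like motif, while the third holds 2 C/EBP-like motifs and no AGGTCA. None of these matches overlap. GC content was 82.4%, 63.6% and 40.8%. Over all 32841 listed starts, 36.9% hold the C/EBP-like motif and 14% hold AGGTCA in these 250 bases, so that either match is common. GGAATG, the motif of the TEAD factors to which YAP and TAZ bind, was found before 0 of the 3 starts and before 12.6% of all starts. RefSeq starts were listed for 7 of the 10 genes looked up, among them Cebpa and Cebpb, whose 250 bases hold none of the 3 motifs.

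Lpl encodes lipoprotein lipase, which frees fatty acids from circulating lipoproteins and is an early gene of adipogenesis that macrophages also express. The brighter probe (A_51_P259296, chromosome 8, 71835357 to 71835416, mm8) had log2 signals of 10.73 in Lats2-/- and 6.74 in Lats2+/+ cells of litter 112, 6.65 and 6.99 in litter 116, and 7.34 and 6.49 in litter 121. All extracts other than the Lats2-/- extract of litter 112 were dim, between 6.49 and 7.34. In the order of levels, the wild-type extracts of litters 116 and 112 were followed by the Lats2-/- extract of litter 116, and these 3 did not differ from their neighbours among them by more than the SD over arrays.

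Lpl was thus 15.9-fold higher in Lats2-/- cells of litter 112, 1.80-fold higher in litter 121 and 1.26-fold lower in litter 116. The second probe (A_52_P257812) had 1.83 in litter 112 and was not above background in either extract of litter 116. It passed the filter on dim probes only through Lats2-/- cells, with 2 of 3 extracts above background against 1 of 3 in wild type. In litter 121 it was above background only in Lats2-/- cells, with an at-least fold of 1.15. Its log2 ratios were 0.08 to 0.35 on the arrays of that litter. The mean of the brighter probe was 1.50 ± 2.24 (SD, n = 3 litters), with a limma adjusted p of 0.764, unadjusted 0.188. It was 0.26 without litter 112, 2.42 without litter 116, and 2.19 from the log ratio that Feature Extraction computed. The offset used here draws ratios of dim signals toward 0.

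**Figure D2:**
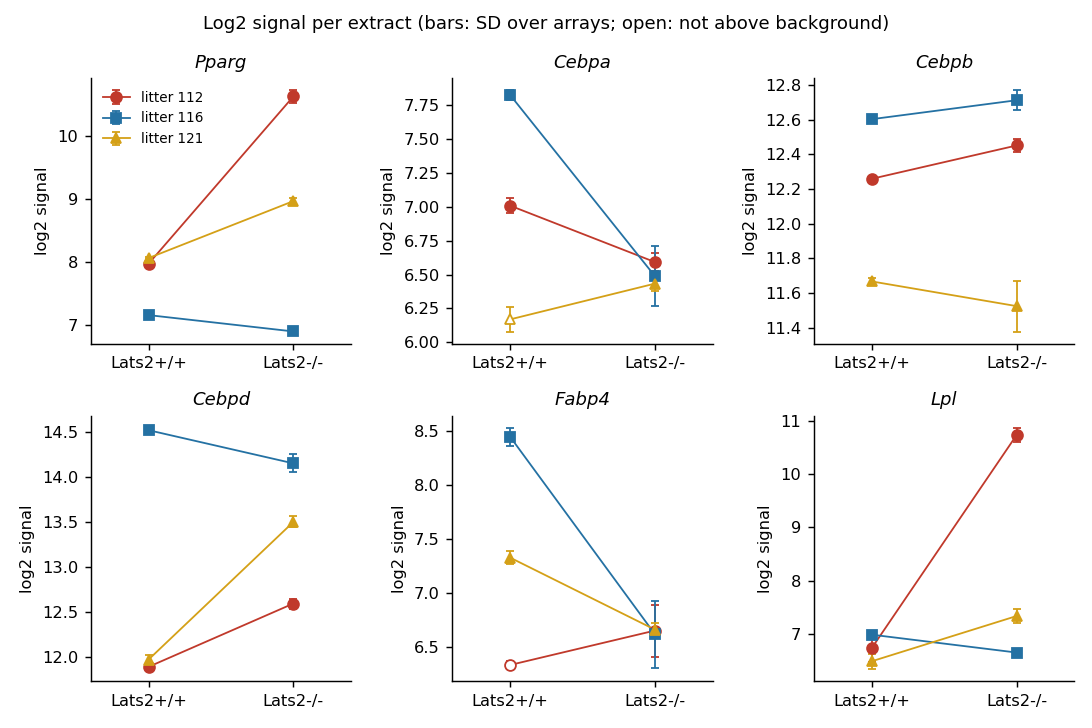
Log2 signal (vertical axes, with a range of their own in each panel) of the 6 kept members, by genotype. Lines join the extracts of a litter, bars are the SD over its arrays, and open symbols are extracts not above background. Pparg and Lpl are highest in the Lats2-/- extract of litter 112, at 10.63 and 10.73. Fabp4 is dim in the Lats2-/- extracts, at 6.62 to 6.66, and spread among the wild-type extracts.

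Cebpb and Cebpd, the early factors that respond to serum and hormones, were above background in all 6 extracts. Cebpb was nearly equal in both genotypes. Its brighter probe (A_52_P63553, chromosome 2, 167381552 to 167381610, mm8) gave 12.45 and 12.26 in Lats2-/- and Lats2+/+ cells of litter 112, 12.71 and 12.60 in litter 116, and 11.52 and 11.67 in litter 121. The litters differed more than the genotypes, with litter 121 lowest. The mean ratio was 0.05 ± 0.17 (SD, n = 3 litters, limma adjusted p of 0.943, unadjusted 0.680), and the second probe gave 0.22, 0.04 and -0.08. Without litter 112 the mean of the brighter probe was -0.02, and without litter 121 it was 0.15.

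Cebpd (A_51_P444447, chromosome 16, 15801944 to 15802003, mm8) had log2 signals of 12.60 and 11.90 in Lats2-/- and Lats2+/+ cells of litter 112, 14.15 and 14.52 in litter 116, and 13.50 and 11.98 in litter 121. Both extracts of litter 116 were above all the others. Cebpd was 1.62-fold and 2.87-fold higher in Lats2-/- cells of litters 112 and 121 and 1.29-fold lower in litter 116, the same signs as Pparg and Lpl. The mean ratio was 0.62 ± 0.95 (SD, n = 3 litters), with a limma adjusted p of 0.770, unadjusted 0.206. Without litter 116 it was 1.11, with a limma adjusted p of 0.834, unadjusted 0.0298, and without litter 121 it was 0.17. Across the 6 extracts, Pearson's r with the level of Pparg was 0.878 for Lpl and -0.438 for Cebpd, as a description over 3 pairs that share arrays. The value for Lpl rests largely on the Lats2-/- extract of litter 112, highest for both genes, since Lpl was dim in all others.

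Cebpa, the partner of PPARγ that gives adipocytes insulin sensitivity, was dim. Its kept probe (A_52_P168567, chromosome 7, 34830258 to 34830317, mm8) had log2 signals of 6.59 and 7.01 in Lats2-/- and Lats2+/+ cells of litter 112, 6.49 and 7.82 in litter 116, and 6.43 and 6.17 in litter 121. The 3 Lats2-/- extracts lay between 6.43 and 6.59, and the wild-type extracts of litters 116 and 112 were higher. The wild-type extract of litter 121 was not above background. The at-least fold of Lats2-/- cells was 1.20 there, with log2 ratios of 0.16 to 0.35 on the arrays. In litter 116 Lats2-/- cells were 2.52-fold lower. The mean ratio was -0.50 ± 0.80 (SD, n = 3 litters, limma adjusted p of 0.785, unadjusted 0.230), and it was -0.08 without litter 116, -0.87 without litter 121 and -0.84 from the Feature Extraction log ratio. The second probe was detected above background for wild-type cells of litter 116 alone, by at least 1.24-fold.

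Fabp4 encodes the fatty acid carrier aP2, a direct target of PPARγ in adipocytes. Its brightest probe (A_51_P336833, chromosome 3, 10186983 to 10187043, mm8) had log2 signals of 6.65 and 6.33 in Lats2-/- and Lats2+/+ cells of litter 112, 6.62 and 8.44 in litter 116, and 6.66 and 7.32 in litter 121. The Lats2-/- extracts were 6.64 ± 0.02 and the wild-type extracts 7.37 ± 1.06 (SD, n = 3 litters), with the wider spread among wild-type extracts. The Lats2-/- signals were dim, with SDs over arrays of 0.24, 0.31 and 0.06 in litters 112, 116 and 121. Differences among dim extracts are drawn toward 0, so that these level values do not show equal amounts. Fabp4 was 3.54-fold lower in Lats2-/- cells of litter 116 and 1.59-fold lower in litter 121. In litter 112 the wild-type extract was not above background. The at-least fold of Lats2-/- cells was 1.25 there, with log2 ratios of 0.17 and 0.46 on the 2 arrays. The mean ratio was -0.72 ± 1.07 (SD, n = 3 litters, limma adjusted p of 0.765, unadjusted 0.192). Without litter 116 it was -0.17, and without litter 112 it was -1.25, with a limma adjusted p of 0.890, unadjusted 0.0488. A second kept probe gave -1.40 and -0.51 in litters 116 and 121 and was not above background in either extract of litter 112, and the third was detected for wild-type cells of litter 116 alone, by at least 1.19-fold.

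Since litter and slide overlap, the means were also read by slide. With slide as a block they were 1.05 for Pparg, 1.34 for Lpl, 0.84 for Cebpd, -0.31 for Cebpa, -0.71 for Fabp4 and 0.0041 for Cebpb, and none had an unadjusted limma p under 0.05. Within the slide of litters 112 and 116 the means were 1.20, 1.83, 0.17, -0.87, -0.75 and 0.15 in the same order, and the other slide held litter 121 alone.

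Fabp4 and Pparg had opposite signs in litter 121, with -0.67 and 0.91, and both were lower in Lats2-/- cells of litter 116, with -1.83 and -0.26. In litter 112 both were higher, Pparg by 2.66 and Fabp4 by an at-least fold of 1.25. Pearson's r between their levels was -0.379 over the 6 extracts, and 0.632 between Fabp4 and Cebpa.

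The members of the mature fat cell were not detectable. Adiponectin (Adipoq), the fatty acid transporter Cd36 (2 probes), the lipid droplet coat protein perilipin (Plin, now Plin1) and adipsin (Cfd) were above background on the majority of arrays in 0 of the 6 extracts. Their log2 signals lay between 5.81 and 6.41, and single arrays passed for Adipoq, Cd36 and Plin on at most 2 of the 8 arrays of a genotype. Their litter ratios lay between -0.30 and 0.16, and no fold is given for them. Signals at this level do not show that the transcripts were absent.

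Markers of other cells were read beside these values. Of 12 macrophage markers, 7 (Adgre1, Ptprc, Itgam, Tyrobp, Mrc1, Cx3cr1 and Aif1) were above background in no extract, and the summed linear signal of the list was 1218 in Lats2-/- and 1341 in Lats2+/+ cells of litter 112, where Lpl differed most. Over all litters it was 1218 to 4324 in Lats2-/- and 1304 to 2700.3 in Lats2+/+ extracts, the highest coming from Lyz2 in litter 121 (ratio of 3.40). Cd14, above background in all 6 extracts, had ratios of -0.60, -1.64 and -0.74 (unadjusted limma p of 0.0192, adjusted 0.711) and a log2 signal of 10.81 in wild-type cells of litter 116, its highest, where Fabp4 was also highest. Of the other 4 kept macrophage markers, Lyz2 had 0.05 and 0.95 in litters 112 and 116, and Fcer1g was between -0.13 and 0.07. Cd68 had 0.36 in litter 112 and was not above background in Lats2-/- cells of the other litters, and Csf1r was above background only in Lats2-/- cells of litters 112 and 116. Of 10 endothelial markers, 6 were above background in no extract, with Pecam1 and Cdh5 among them, and sums were 841 to 1072 and 927 to 1396. Egfl7, above background in all 6 extracts, had ratios of 0.45, -1.16 and -0.87, the signs of Fabp4, and was also highest in wild-type cells of litter 116, at 9.56. Of the other kept markers of that list, Tek had 0.024 and 0.16 in litters 116 and 121 and Vwf had 0.32 in litter 112, while in their remaining litters at least 1 extract was not above background. Endothelial cells also express Fabp4 and Cd36, and the part of macrophages and endothelial cells in the values of Fabp4 and Lpl was not tested. Sums for epithelial markers were 583 to 642 and 565 to 643, and for erythroid markers 383 to 405 and 364 to 421. For skeletal muscle markers they were 4166 to 10823 and 891 to 8559. Undetected markers add mainly offset and background to the sums of all these lists, which limits them as a measure of cell content.

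Fibroblast markers also differed between litters. The median ratio of the 12 markers was 0.24, 1.94 and -0.95 in litters 112, 116 and 121, and the summed signal was 225196 to 513130 in Lats2-/- and 204120 to 419062 in Lats2+/+ extracts. The matrix proteins collagen III (Col3a1) and decorin (Dcn) had ratios of 0.13, 3.70 and -3.42 and of 3.26, 6.21 and -1.94. Thy1 had -0.38, 2.05 and -3.66. Pdgfra, a receptor that marks mesenchymal precursors including those of fat, had 0.90 and 0.13 in litters 112 and 116. In litter 121 it was lower in Lats2-/- cells, where 2 of 4 arrays were above background, so that the size is uncertain. The part of the cell mixture in the litter differences of Pparg, Lpl, Cebpa, Cebpd and Fabp4 was not tested. Prrx1, a mesenchymal transcription factor, had the smallest spread between litters among the 12, with -0.52, -0.79 and -0.70.

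**Figure D3:**
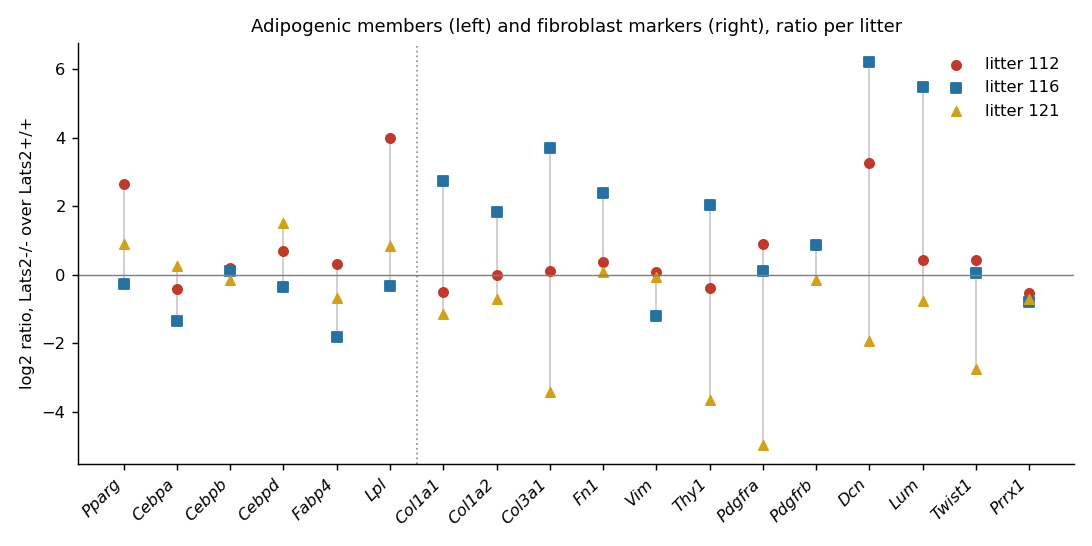
Log2 ratio of Lats2-/- over Lats2+/+ (vertical axis) in litters 112, 116 and 121 for the 6 kept members, left of the dotted line, and the 12 fibroblast markers, right of it. Grey lines span the 3 litters of a gene. Several markers span more than the members do, with Dcn between -1.94 and 6.21 and Lpl between -0.33 and 3.99.

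The surrounding pathway was read through 5 lists: factors that promote adipogenesis, inhibitors, partners and coregulators of PPARγ and C/EBP factors, lipid storage and metabolism, and adipokines. Of their genes, 112 had a kept probe, 0 passed the adjusted threshold in limma, and 13 (11.6%) had an unadjusted p under 0.05, beside 7.6% of all 14727 genes with a kept probe. Of the 13, 10 were higher and 3 lower in Lats2-/- cells, beside 4.14% and 3.46% over all genes. Without litter 116 there were 8, by the methods' t-test 6, and with no replicate block 5. Of the 112 genes, 29 (25.9%) had 1 sign in all 3 litters, beside 30% over all genes. With litter 121 turned, 10 (7 higher and 3 lower, 8.93%) had an unadjusted p under 0.05, beside 5.44% of all genes, and 29 (25.9%) had 1 sign, beside 24.5%.

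Among 22 factors that promote adipogenesis, 5 were higher and 1 lower at an unadjusted limma p under 0.05 (27.3%, beside 7.6% of all genes). Under other processing choices the count was 2 to 6. The median mean ratio was 0.26, beside 0.01 over all genes. The list's median was 0.24, 0.21 and 0.44 in litters 112, 116 and 121. Irs1, the adaptor that relays insulin and IGF1 signals, had ratios between 0.78 and 1.14 in the 3 litters, averaging 0.97 ± 0.18 (SD, n = 3 litters, limma adjusted p of 0.634, unadjusted 0.00153). Egr2 (Krox20), which acts upstream of C/EBPβ, had 5.85, 4.30 and 1.67, with log2 signals of 14.47, 10.99 and 10.33 in Lats2-/- against 8.62, 6.70 and 8.65 in Lats2+/+ extracts, which do not overlap. Tcf7l1, a repressor of the TCF family, had 0.40, 0.97 and 0.93. Stat5a and Stat5b, neighbouring paralogs that transmit growth hormone signals, had means of 0.30 ± 0.09 and 0.34 ± 0.08, and Fgf10, a growth factor for preadipocytes, had -0.16, -1.01 and -0.65 (SD, n = 3 litters). Igf1 was higher in all 3 litters, by at least 1.19-fold in litter 112, where wild-type cells were not above background, and by 3.35 and 1.24 on the log2 scale in litters 116 and 121 (unadjusted limma p of 0.0727).

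Among 30 inhibitors, 1 was higher and 2 were lower at that threshold (10%, beside 7.6% of all genes), with a median of 0.10. Foxc2, a forkhead factor of mesoderm, had -1.95 and -2.23 in litters 112 and 116 and was at least 9.72-fold lower in litter 121, where the Lats2-/- extract was not above background (limma adjusted p of 0.634, unadjusted 0.00157). Gli3, a transducer of hedgehog signals, had -0.23, -0.60 and -0.82. The Notch target Hes1 had 0.24 and 1.23 in litters 112 and 121 and was at least 3.90-fold higher in litter 116. Its mean was 1.15 (unadjusted limma p of 0.0392), and 0.74 without litter 116. Tgfb1 had a mean of 0.65 ± 0.65 (SD, n = 3 litters, unadjusted limma p of 0.0900), and 0.28 without litter 116. The Hippo coactivators TAZ (Wwtr1) and YAP (Yap1), named after their values were seen, had means of 0.05 ± 0.29 and -0.13 ± 0.16 (SD, n = 3 litters, unadjusted limma p of 0.743 and 0.321).

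Of 19 partners and coregulators, 2 were higher and 0 lower (10.5%, beside 7.6% of all genes), with a median of 0.06. Under other processing choices the count was 0 to 3, and it was 0 without litter 112 and without litter 116. Rxra, the receptor with which PPARγ binds DNA as a dimer, had 0.24, 0.37 and 0.36 (mean of 0.33 ± 0.07, SD, n = 3 litters, limma adjusted p of 0.711, unadjusted 0.0324). Under other processing choices the mean of Rxra was 0.20 to 0.37. From the Feature Extraction log ratio its unadjusted limma p was 0.129. Kdm1a, a histone demethylase, had 0.13, 1.22 and 0.22 (unadjusted limma p of 0.129), with a mean of 0.52, and 0.17 without litter 116. Med1, a Mediator subunit, had -0.08, -0.37 and -0.27 (unadjusted limma p of 0.102).

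Lipid storage and metabolism gave 1 higher and 0 lower of 30 genes (3.33%, beside 7.6% of all genes), with a median of 0.01. This was Ucp2, a mitochondrial carrier, with 1.74, 0.38 and 1.13 (unadjusted limma p of 0.0243). Its wild-type signal in litter 112 was above background on 1 of 2 arrays, so that 1.74 is uncertain. Slc27a1, a fatty acid transporter, had -0.80, -1.85 and -0.10, Acsl1, which activates fatty acids, had a mean of -0.28 ± 0.25, and pyruvate carboxylase (Pcx) had 0.36 ± 0.52 (SD, n = 3 litters, unadjusted limma p of 0.0754, 0.124 and 0.200). Without litter 116, Slc27a1 was at -0.45, Acsl1 at -0.16 and Pcx at 0.07. Of 11 adipokines and secreted proteins, 1 was higher and 0 were lower (9.09%, beside 7.6% of all genes). The median of their mean ratios was 0.40, above the medians of the single litters (0.06, 0.33 and 0.07). Vegfa had 0.81, 0.33 and 0.07 (unadjusted limma p of 0.0939). With every probe kept, dim ones included, the medians of the promoting factors and of the adipokines were 0.073 and 0.032. On the kept probes the median of the adipokines was 0.22, 0.18 and 0.27 without litters 112, 116 and 121.

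**Figure D4:**
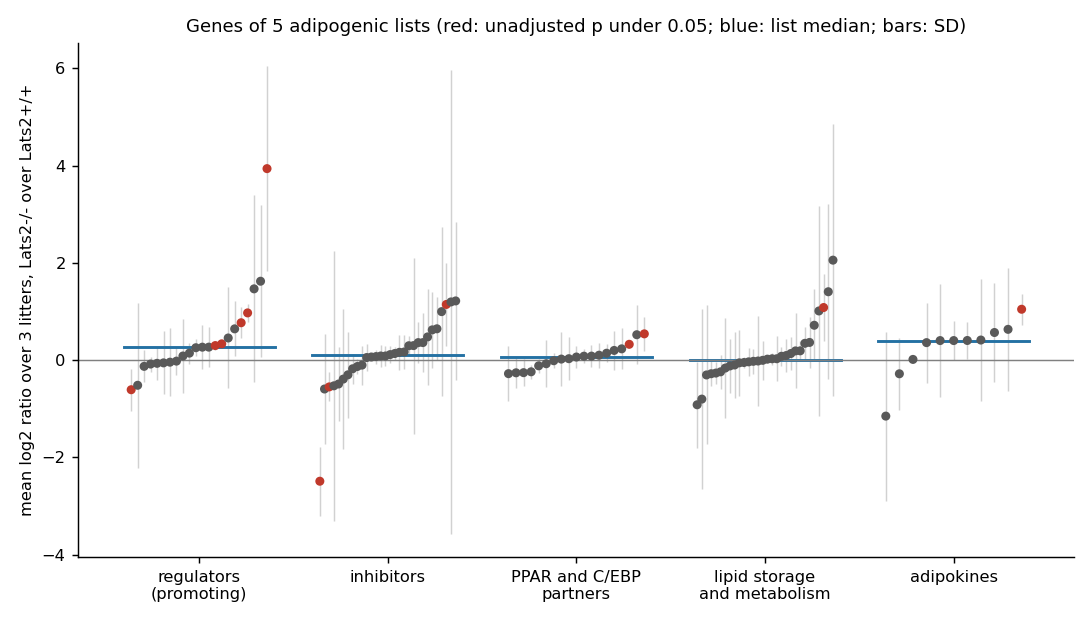
Mean log2 ratio of Lats2-/- over Lats2+/+ over 3 litters (vertical axis) for the kept genes of 5 adipogenic lists, ordered by value within a list. Grey bars are the SD over litters, blue lines are list medians and red genes had an unadjusted limma p under 0.05. The medians lie between 0.01 and 0.40, and the 13 red genes are spread over all 5 lists.

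For Pparg and Fabp4, the 5 genes with the most similar levels over the 6 extracts were found among 14726 others, as a description. For Pparg these were Vps29 (r of 0.992), Klf6 (0.986), Swi5 (0.983), Serpinb6c (0.980) and Serinc4 (0.978). Klf6, a zinc finger factor, had log2 signals of 14.47, 12.63 and 13.45 in Lats2-/- and of 13.25, 12.69 and 13.30 in Lats2+/+ cells of litters 112, 116 and 121. It was highest and lowest in the same extracts as Pparg. For Fabp4 they were BC033915 (0.992), Susd4 (0.981), Cdhr5 (0.978), Tac1 (0.977) and Ace (0.976). Tac1, a neuropeptide precursor, had log2 signals of 6.07, 6.53 and 6.04 in Lats2-/- and of 6.06, 8.62 and 7.21 in Lats2+/+ cells, with the wild-type extract of litter 116 highest, as for Fabp4.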

How the data were processed

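The authors hybridised 8 two-colour Agilent whole mouse genome arrays and processed the scans with Feature Extraction software of Agilent (per the file headers, version 10.7.3.1, and 10.5.1.1 per the submitters' processing notes). The deposited scanner files give unnormalized mean and background intensity per spot, flags, and a log10 ratio of background-subtracted, dye-normalized signals. The deposited value table holds the same log10 ratio, turned to Lats2-/- over Lats2+/+ (largest difference of 0.005).

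Mean intensities were corrected with normexp (offset 50), 860 outlier gene spots were left out, and loess was run within arrays (limma 3.58.1, R 4.3.3). Repeat spots were averaged, then arrays within a litter, with dyes balanced. The litter is the replicate (n = 3), and genotypes are paired on the array. A probe was kept if well above background in at least 2 of 3 extracts of either genotype, on the majority of arrays, which left 22642. Ratios were tested against 0 with limma, two-sided, with Benjamini-Hochberg adjustment over all kept probes. Levels are log2 signals after Aquantile between arrays. Precision is limited by 8 arrays and 3 litters. An at-least fold sets the brighter extract against the higher of the dim signal and the lowest signal above background. It is taken from means over the arrays of a litter, so that single arrays can lie below it.

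A gene was read at its brightest kept probe. Symbols came through RefSeq accessions (24375 probes) or names (8727), and 8072 probes kept the file's name. Named were the members, Lats2, Ctgf, list genes with an unadjusted p under 0.05, and from each list, of the genes with 1 sign, the 2 highest and the 2 lowest means. Some genes that this rule names are not reported here. Members, lists and tests were chosen with earlier results of these data known. Probe positions are those of the files (mm8), and exon annotation of that build was not used. The fit was tested on simulated data. Alternatives covered the offset, the Feature Extraction ratio, the value table, median centring, no and strict filters, leaving out litters, slide as a block, no replicate block, the methods' t-test, the mean over probes, file names and, added later, litter 121 turned.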

Additional observations from a re-analysis of the deposited data

How the results depend on the processing

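Under 14 alternatives, 75 of 76 values of the 6 member genes kept their sign, and 0 of 76 passed the adjusted threshold in limma, the lowest adjusted p being 0.733. The exception was Cebpb, at -0.017 without litter 112 and up to 0.15 with another litter left out. All 293 values of the named pathway genes, the Lats2 probe nearest the 5′ end and Ctgf kept their sign and side, and the other 3 Lats2 probes were not run. With the sign of litter 121 turned, an alternative chosen after seeing the data, Cebpd was at -0.40, Pparg at 0.50, Lpl at 0.94, Cebpb at 0.15, Cebpa at -0.67 and Fabp4 at -0.28, and 1081 tested probes and 10 pathway genes had an unadjusted p under 0.05. The count of member probes at an unadjusted p under 0.05 was 0 to 2 with a litter left out: 1 without litter 112 (Fabp4) and 2 without litter 116 (Cebpd and Pparg). It was 0 under the other alternatives that test probes. Tested probes past the adjusted threshold were 0 under every alternative that tests probes, and those at an unadjusted p under 0.05 were 1549, against 2624 with no filter and 555 with no replicate block. Pathway genes at that p were 13, against 6 by the methods' t-test, 8 to 13 with a litter left out, and 5 with no replicate block. For single lists the count was 2 to 6 for promoting factors, 1 to 5 for inhibitors, 0 to 3 for partners, 0 to 2 for lipid genes and 0 to 3 for adipokines. With no filter, the medians of the promoting factors and of the adipokines were 0.073 and 0.032, where dim probes near 0 were added. The median of the adipokines was 0.18 to 0.27 with a litter left out. The median of the lipid genes, 0.01, was between -0.03 and 0.05. The cause of the other differences was not tested. Both genotypes of a litter share each array, and with no replicate block the ratios of the members were the same and 0 of them had an unadjusted p under 0.05. The strict filter left no value for Cebpa and Fabp4. Signals near background limit Cebpa, Fabp4 and the second Lpl probe: dim ratios are drawn toward 0, and the Feature Extraction ratio gave means of -0.84, -1.08 and, for the brighter Lpl probe, 2.19.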

Other observations

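Further genes of the lists, named after their values were seen, also differed by litter. Dlk1 (Pref-1), a surface protein of preadipocytes that blocks their differentiation, had log2 signals of 13.07 and 8.63 in Lats2-/- and Lats2+/+ cells of litter 112, 11.84 and 8.39 in litter 116, and 8.63 and 12.91 in litter 121. Its ratios of 4.43, 3.44 and -4.29 were thus of opposite sign in litter 121 (mean of 1.20 ± 4.77, SD, n = 3 litters, limma adjusted p of 0.918). Plin4, a lipid droplet protein, had ratios of 3.35, -0.20 and 1.08, with the signs of Pparg and Lpl in each litter (adjusted p of 0.754 in limma). Bmp4, a factor that commits mesenchymal cells to the fat lineage, had 2.64, -0.76 and 2.52, again with those signs (adjusted p of 0.754 in limma). Both were chosen for their size: these signs were found for 17 of the 112 genes of the lists (15.2%), Foxo1 (0.16, -1.44 and 2.18), Klf15 and Pltp among them, beside 12.3% of all 14727 genes. Signs of undetected extracts are counted too: Klf15 and Zfp467, both among the 17, were not above background in either extract of litter 112. Plin3, another lipid droplet protein, had 3.46, 0.18 and -0.60. Mest, an imprinted gene that is raised in expanding fat tissue, had -0.35, 1.39 and 5.13, with log2 signals of 14.74 and 9.61 in litter 121, and did not exceed background in Lats2-/- cells of litter 112.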
